A study of Mus musculus with 6 samples.

Results

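The genes described here are the named small nuclear and nucleolar RNA genes: the RNAs of the spliceosome, the snoRNAs and scaRNAs that guide the modification of other RNAs, the RNAs of RNase P and RNase MRP, and the Y RNAs. They were chosen by gene name and by a level above 0 in at least 1 library, so which genes are members follows from the measured values and is a description. Of 55995 features in the table, 171 had a matching name, and 43 of these were above 0 in at least 1 of 6 libraries. The other 128 were listed at 0 in every library. The member nearest the threshold was Snora52, with 0.29 TPM in 1 library, and every row outside it was at 0.

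RNA was sequenced from the gastrocnemius, a calf muscle, of NSG mice, an immunodeficient strain without mature lymphocytes. All the mice carried tumours of MDA-MB-231, an established human breast cancer cell line, implanted subcutaneously with Matrigel on the left side. In the radiotherapy group, 3 libraries, tumours of about 800 mm3 were irradiated locally with 10 Gy (6 MV X-rays, 6 Gy per minute), and the contralateral muscle was collected after 3 days. The control group, 3 libraries, was not irradiated, and its tumour size and day of sampling are not given in the labels used here. The data columns of all libraries carry the label WT, and what it refers to was not established here. No age or sex is given. Nothing in the labels ties each library to its own mouse, so the p-values cover the spread between libraries, which could be technical. The values are TPM, levels scaled for RNA length and library size. Without read counts the depth cannot be known, and the precision rests on 3 libraries a group.

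Small non-coding RNAs of these classes work as parts of RNA-protein particles. In the spliceosome, U1 RNA pairs with the start of an intron and U2 RNA with its branch point, while U11 and U12 do the same for a rare class of introns. Box C/D snoRNAs guide ribose methylation and box H/ACA snoRNAs guide pseudouridylation, mostly of ribosomal RNA, and most vertebrate snoRNAs are cut out of the introns of host genes. Y RNAs are short transcripts of RNA polymerase III that bind the Ro60 and La proteins.

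The sequences of the RNAs on which the results turn were read from the GENCODE vM21 transcripts (GRCm38), 5′ to 3′. Rny1 (ENSMUSG00000065701, chr6:47788069-47788180, minus strand) and Rny3 (ENSMUSG00000064945, chr6:47781624-47781725, plus strand) are the Y RNAs, with capitals on their longest shared run of 12 bases. Rnu1a1 (ENSMUSG00000119476, chr11:87422867-87423030, plus strand, matched by symbol) encodes U1, with capitals on the intron-pairing letters ACTTACCTG and on AATTTNTNG, the letters searched as an Sm site, where the ring of Sm proteins binds. Rnu11 (chr4:132270080-132270213, minus strand) encodes U11, with capitals on the same Sm letters. Snora65 (chr2:32963291-32963420, plus strand) and Snora43 (chr2:26637847-26637985, minus strand) are box H/ACA snoRNAs, with capitals on the ACA box. Snord14d (chr9:40803995-40804080, plus strand, matched by symbol) and Snord21 (chr5:107904555-107904648, plus strand) are box C/D snoRNAs, with capitals on the letters TGATGA of box C and CTGA of box D.
Rny1: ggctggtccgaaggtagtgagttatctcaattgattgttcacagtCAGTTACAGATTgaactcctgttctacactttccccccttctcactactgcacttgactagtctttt
Rny3: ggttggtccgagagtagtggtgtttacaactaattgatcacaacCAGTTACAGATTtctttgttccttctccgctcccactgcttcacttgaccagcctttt
Rnu1a1: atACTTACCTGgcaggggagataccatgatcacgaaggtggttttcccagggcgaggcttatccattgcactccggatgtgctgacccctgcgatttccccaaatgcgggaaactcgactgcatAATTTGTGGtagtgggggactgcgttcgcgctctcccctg
Rnu11: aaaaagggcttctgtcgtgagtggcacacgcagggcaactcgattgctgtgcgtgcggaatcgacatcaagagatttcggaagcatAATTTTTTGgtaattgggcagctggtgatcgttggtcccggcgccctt
Snora65: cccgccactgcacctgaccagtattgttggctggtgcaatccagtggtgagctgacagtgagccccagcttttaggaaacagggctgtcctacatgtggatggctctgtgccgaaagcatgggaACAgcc
Snora43: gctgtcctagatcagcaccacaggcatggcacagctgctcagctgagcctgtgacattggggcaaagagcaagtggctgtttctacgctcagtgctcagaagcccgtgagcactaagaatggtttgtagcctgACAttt
Snord14d: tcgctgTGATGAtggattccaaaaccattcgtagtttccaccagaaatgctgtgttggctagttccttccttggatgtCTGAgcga
Snord21: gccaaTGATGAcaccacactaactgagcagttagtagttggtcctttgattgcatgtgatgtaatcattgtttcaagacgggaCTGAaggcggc

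The class letters were searched on the RNA strand alone, in the members, in the rows at 0 and in other RNAs of 60 to 420 bases. TGATGA followed by CTGA stood in 9 of 11 box C/D members, in 65 of 87 box C/D rows at 0 and in 8.79% of 9978 other features. ACA with 3 to 13 bases after it stood in 13 of 14 box H/ACA members, in 19 of 24 box H/ACA rows at 0 and in 17.9% of the others. ACTTACCTG belongs to U1, while the major spliceosomal class also holds U2 and U5 genes. It stood in 3 of 5 major spliceosomal members, in 1 of 4 such rows at 0 and in 0.521% of the others. AATTTNTNG stood in 4 of 5 major spliceosomal members, in 1 of 4 such rows at 0 and in 2.94% of the others, and in 1 of 2 minor spliceosomal members and the 1 such row at 0. Rny1 and Rny3 are 6343 bases apart on opposite strands and have 81 identical bases in their alignment, 79.4% of the shorter RNA.

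The libraries differed in ways that touch these genes. Mitochondrial genes and the 20 most abundant features took 34.5% to 45.3% of all TPM in control libraries, 53.9% and 55.5% in radiotherapy replicates 1 and 2, and 32.4% in radiotherapy replicate 3. Radiotherapy replicate 3 also stood apart in neutrophil markers: 5 of 5 were above 0 somewhere, and their summed level was 72.5 to 181 TPM in controls, 10.7 TPM in radiotherapy replicate 1, 17.9 TPM in replicate 2 and 2924 TPM in replicate 3. The 10 skeletal muscle markers, all present, summed to 112700 to 126000 TPM in controls and to 96650 to 168200 TPM after radiotherapy. In bulk tissue, fewer cells of a type and less RNA per cell cannot be told apart. The median log2 difference over all tested features was -0.36 on the deposited scale and -0.01 after median-of-ratios scaling, which sets a typical gene equal across libraries.

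Few of these RNAs were seen in every library. Only 10 of the 43 members were above 0 in all 6 libraries (23.3%), against 60.3% of the 26391 features above 0 somewhere, and 21 were above 0 in a single library (48.8%), against 14.6%. Of the 10, 4 were the U3 rows Snord3b1 to Snord3b4, which had identical values. The number of members above 0 per library was 22, 18 and 20 in controls and 14, 22 and 25 after radiotherapy. Of the 21 seen once, 8 were seen in radiotherapy replicate 3, 5 in radiotherapy replicate 2, 0 in radiotherapy replicate 1, 4 in control replicate 1, and 2 each in control replicates 2 and 3. Together the members made up a small part of each library. Their summed level was 449.9, 551 and 487 TPM in controls (496 ± 50.9, SD, n = 3) and 244, 355 and 537 TPM after radiotherapy (379 ± 148). The ranges of the groups overlapped.

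The classes were represented unevenly. Both Y RNA rows were members, as were 2 of 3 RNase P and MRP rows, 5 of 8 U3 rows, 5 of 9 major spliceosomal rows, 2 of 3 minor spliceosomal rows, 14 of 38 box H/ACA rows (36.8%), 2 of 8 scaRNA rows, 11 of 98 box C/D rows (11.2%) and 0 of 2 U7 rows. Members tended to be longer RNAs: the median length was 137 bases, from 86 to 414, over the 39 with a reference length, against 91.5 bases over 126 rows at 0. Within box C/D the medians were 104 and 80 bases, and within box H/ACA 135 and 132 bases. The heat map of all members by class shows the same sparseness.

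**Figure D1:**
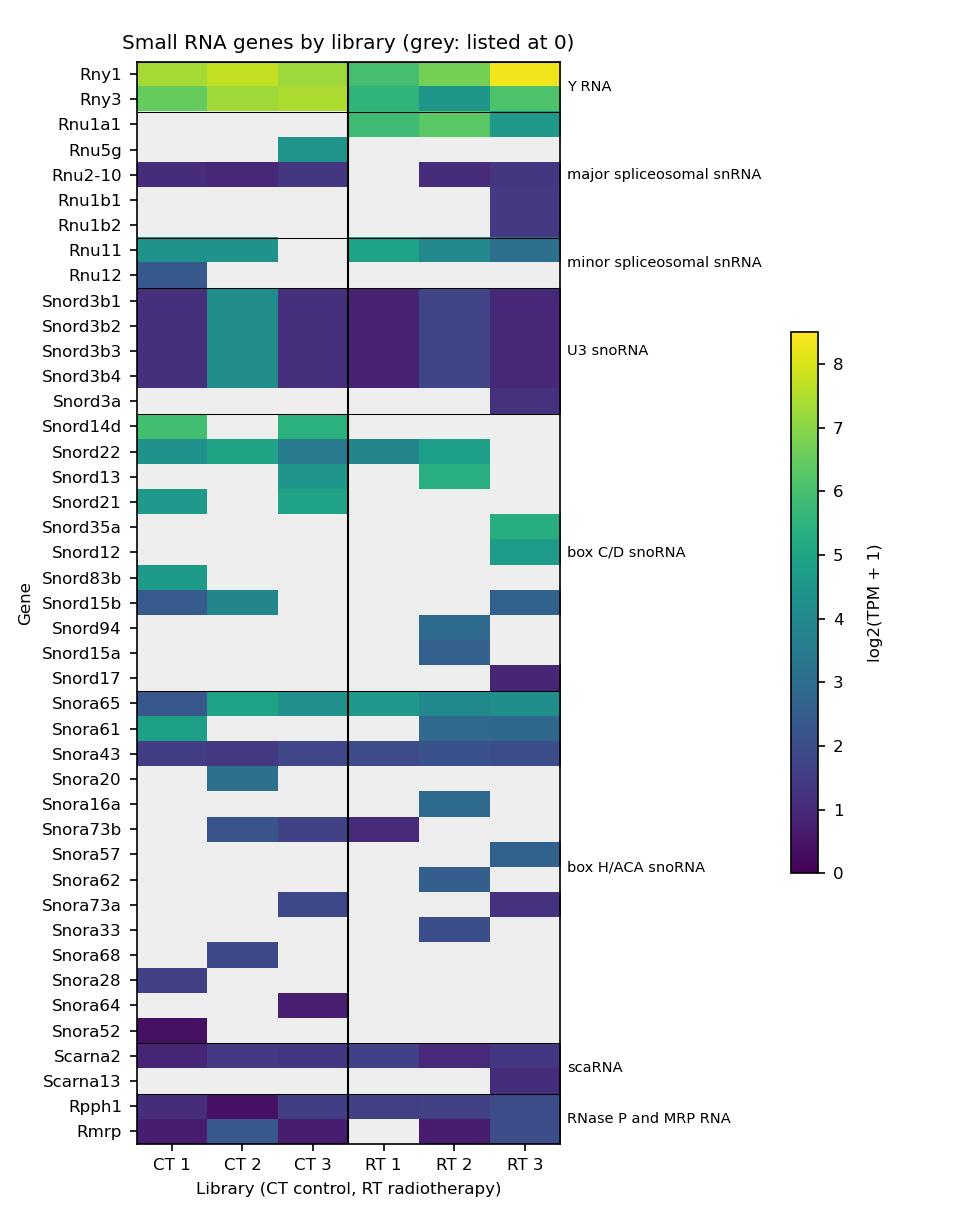
Level of each of the 43 members (rows, grouped by RNA class) in the 3 control (CT) and 3 radiotherapy (RT) libraries (columns), as log2(TPM + 1), with grey where the table lists 0. Rny1 and Rny3 are the brightest rows, 10 rows are filled in all 6 libraries, and 21 rows are filled in 1.

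Of the 43 members, 14 were listed at 0 in all 3 control libraries (32.6%) and 10 in all 3 radiotherapy libraries (23.3%). Over all features above 0 somewhere the shares were 8.94% and 9.63%. Because 21 of these 24 members were above 0 in 1 library, they were at 0 in the other group by necessity. The other 3 were Rnu1a1, at 0 in all controls, and Snord14d and Snord21, at 0 in all radiotherapy libraries. Rnu1a1 was the single member at 0 throughout one group and above 0 throughout the other, a pattern shown by 0.258% of features above 0 somewhere in its direction and by 0.356% in the opposite direction.

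In the comparison of the groups, 28 members had a mean of at least 1 TPM and were tested with limma on log2(TPM + 1), adjusted over all 11938 tested features by the Benjamini-Hochberg method. A single row, Rnu1a1, was called higher at an adjusted p under 0.05, where 0.0419% of all tested features were called higher and 0.0168% lower. It passed the filter on low values through the radiotherapy libraries alone, and its call ended when rows of identical sequence were summed (adjusted p 0.451). None of the 28 was called lower. At an unadjusted p under 0.05, 3 were lower and 1 was higher, beside 13.3% and 1.18% of all features. In 3 members (Rnu1a1, Rpph1 and Snora43) every radiotherapy library was above every control library, against 1.73% of all features, and in 1 member (Rny3) every radiotherapy library was below, against 19.3% of all features. After median-of-ratios scaling 3 members were still separated upward and 1 downward, while the shares over all features became 7.06% and 9.77%. The other 24 members had overlapping groups. The median log2 difference was -0.39 over the tested members and -0.36 over all features (-0.0069 and -0.01 after median-of-ratios scaling), and 16 of 28 members (57.1%) were below 0, against 78.5% of all features. Among the 18 tested members above 0 in both groups the median was also -0.39. Both member medians count Snord3b1 to Snord3b4, 4 rows with identical values, as 4 members. For 1 gene, exact permutation of 3 against 3 libraries could give no p below 0.1.

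**Figure D2:**
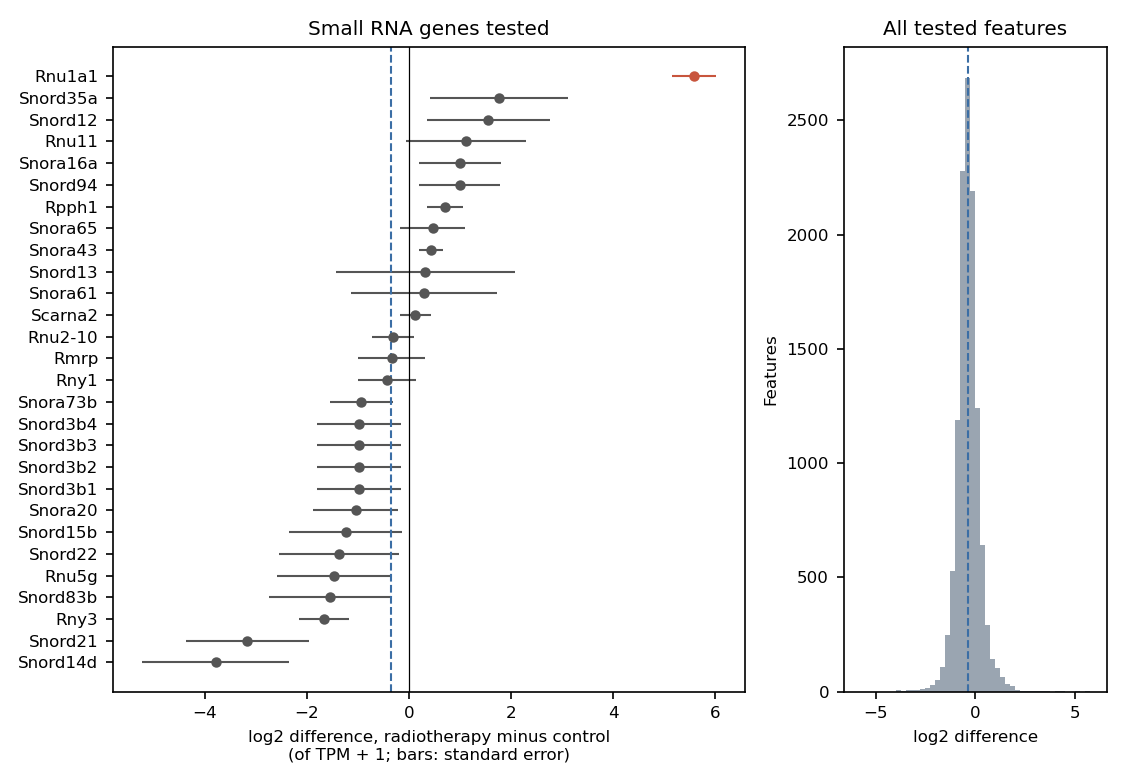
Left, log2 difference (radiotherapy minus control, of TPM + 1) of each of the 28 tested members with its standard error from limma, with Rnu1a1 in red as the one called. Right, the distribution of the same quantity over 11938 features. The dashed line at -0.36 is the median of all features, and most members' standard errors are wide beside that distribution.

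The Y RNAs were the members with the highest mean TPM over the 6 libraries, and the ratio between them varied widely. Rny1 was at 163, 212 and 152 TPM in the controls and at 63.1, 106 and 317 TPM in the radiotherapy libraries. It was lower than every control in radiotherapy replicates 1 and 2 and higher than every control in replicate 3, so the groups overlapped. The difference was -0.43 (SE 0.57) on the log2 scale, with an adjusted p of 0.707 by limma, and -0.0069 after median-of-ratios scaling (adjusted p 0.997). Rny3 was at 88.0, 154 and 176 TPM in the controls and at 46.7, 21.8 and 68.9 TPM after radiotherapy. All 3 radiotherapy libraries were below all 3 controls. The difference of Rny3 was -1.67 (SE 0.48) on the log2 scale and did not pass the threshold, with an adjusted p of 0.288 by limma. After median-of-ratios scaling it was -1.25, with an adjusted p of 0.442.

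The ratio of Rny1 to Rny3 was 1.85, 1.37 and 0.867 in the controls and 1.35, 4.85 and 4.60 after radiotherapy. The ratio was high in radiotherapy replicates 2 and 3 and within the range of the controls in replicate 1. The pair took 55.7%, 66.5% and 67.3% of the members' summed TPM in controls and 45.0%, 35.9% and 71.7% after radiotherapy. Without them the members summed to 199, 184 and 159 TPM in controls and to 134, 228 and 152 TPM after radiotherapy, and the ranges again overlapped. The high Rny1 value in radiotherapy replicate 3 came from the library that stood apart in neutrophil, macrophage and Schwann cell markers. The part of these differences in it was not tested. Without that library limma called both Y RNAs lower, with log2 differences of -1.08 for Rny1 (adjusted p 0.0339) and -2.03 for Rny3 (adjusted p 0.0186). That fit called 29.4% of all features lower and 2.15% higher. Because the library left out held the highest radiotherapy value of both, these calls are no separate support for a difference. Without radiotherapy replicate 1 instead, the log2 difference was 0.0747 for Rny1 and -1.75 for Rny3, and neither was called. Ssb, which encodes the Y RNA binding protein La, was at 36.7, 44.6 and 34.8 TPM in the controls and at 20.3, 21.98 and 38.4 TPM after radiotherapy, with overlapping groups.

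**Figure D3:**
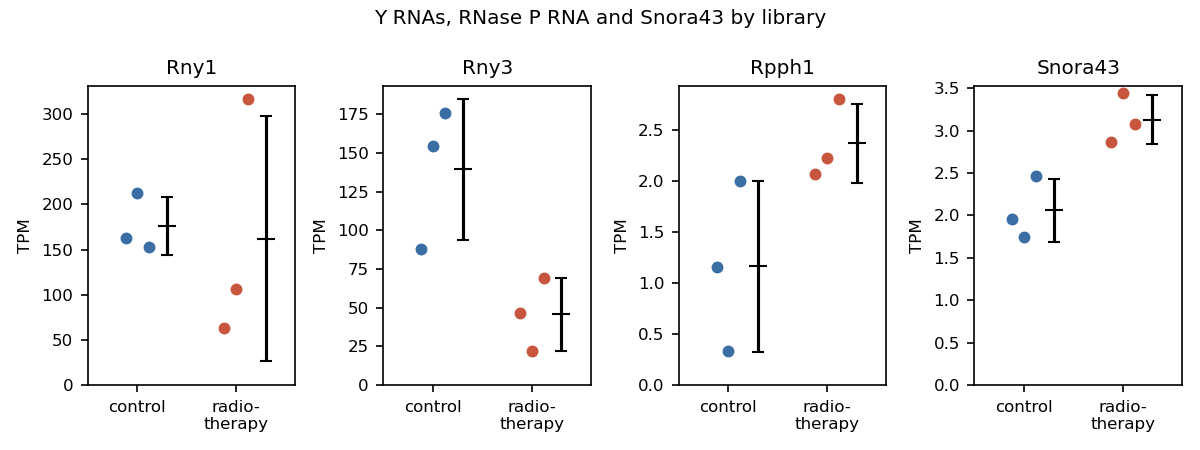
TPM of Rny1, Rny3, Rpph1 and Snora43 in each library, with 3 control (blue) and 3 radiotherapy (red) points and the mean ± SD as bars beside them. Rny1 overlaps between groups because of 1 radiotherapy point at 317 TPM, Rny3 is lower in all 3 radiotherapy libraries, and Rpph1 and Snora43 are higher in all 3 without passing the threshold.

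Among the RNAs of the major spliceosome, Rnu1a1, one of the genes for U1, was listed at 0 in all 3 controls and at 56.1, 78.6 and 23.4 TPM in the radiotherapy libraries. The groups did not overlap. Limma gave an adjusted p of 0.00918, and the fitted log2 difference of 5.59 (SE 0.44) is no estimate of a fold, since the controls are at 0 and it became 8.88 with a pseudocount of 0.1. The call ended with no filter on low values (adjusted p 0.0759), after median-of-ratios scaling (0.0525) or quantile normalisation (0.0730), and with any 1 control library left out (0.0523 to 0.0658). Rnu1a1 lies within Tex14 on the same strand, which was at 0 to 0.33 TPM. Rnu1a1 shares its whole sequence of 164 bases with 4 other rows of the table: Gm22068, Gm22317, Gm25679 and Gm26444. Reads from such copies cannot be told apart by sequence, so the level of the single row is uncertain.

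The identical copies did not show the same pattern. Gm25679 was at 43.8, 113 and 27.2 TPM in the controls and at 0, 78.6 and 23.4 TPM after radiotherapy. Gm26444 was at 0, 113 and 27.2 TPM in the controls and above 0 in 1 radiotherapy library, at 23.4 TPM. Gm22068 had the same value as Rnu1a1 in all 6 libraries and was another of the 5 features called higher. Summed over the 5 identical rows, this U1 sequence was at 43.8, 225 and 54.3 TPM in controls (108 ± 102, SD, n = 3) and at 168, 236 and 117 TPM after radiotherapy (174 ± 59.6). The groups overlapped, through control replicate 2. With rows of identical sequence summed, an alternative chosen after seeing the data, limma gave a log2 difference of 1.02 (SE 0.64) with an adjusted p of 0.451, and no member was called.

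The search was then widened to rows of exactly 164 bases within 5 differences of Rnu1a1. This leaves out U1 rows of other lengths, such as Rnu1b1 and Rnu1b2 at 165 bases. It gave 11 rows, of which 8 were above 0 somewhere. The number of these rows above 0 was 2, 2 and 4 in controls and 6, 3 and 8 after radiotherapy. Within each library all rows above 0 carried 1 and the same TPM, except in control replicate 1, where the 2 rows were at 43.8 and 21.9 TPM. Their sum was 65.8, 225 and 109 TPM in controls (133 ± 82.6, SD, n = 3) and 337, 236 and 187 TPM after radiotherapy (253 ± 76.3). Control replicate 2 lay above radiotherapy replicate 3, so the groups overlapped here as well. Rnu1a1 was among the rows that held a value in each radiotherapy library and in none of the controls, while other copies held one in both groups.

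**Figure D4:**
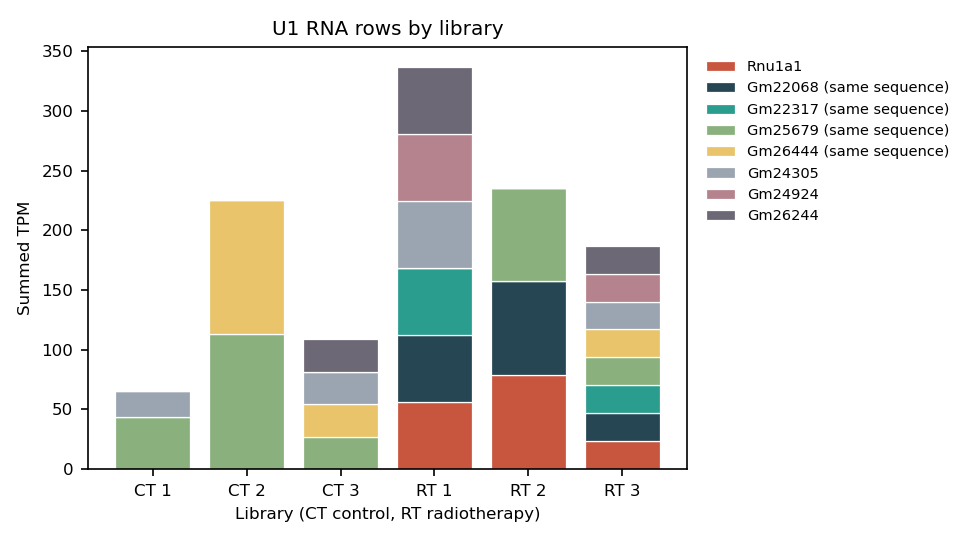
Summed TPM of the 8 rows above 0 among U1 rows of 164 bases, stacked by row, in each of the 3 control (CT) and 3 radiotherapy (RT) libraries. Segments are of equal height within a library except in CT 1, the red Rnu1a1 segment is present in the RT libraries alone, and the total of CT 2 (225 TPM) exceeds that of RT 3 (187 TPM).

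The other major spliceosomal members were low. Rnu2-10, a gene for U2, was at 1.10, 0.95 and 1.53 TPM in the controls and at 0, 1.13 and 1.54 TPM after radiotherapy. The 4 rows with its sequence summed to 4.40, 3.80 and 6.12 TPM and to 3.32, 4.52 and 6.16 TPM, with overlapping groups. Neither the single row nor the sum differed beyond the spread between libraries. Rnu5g, a gene for U5, was seen in control replicate 3 alone, at 19.9 TPM; it lies antisense to Parp16. Rnu1b1 and Rnu1b2, U1 genes of a second sequence type shared by both, were each at 1.69 TPM in radiotherapy replicate 3 and at 0 elsewhere.

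In the minor spliceosome, Rnu11 was at 19.5, 19.3 and 0 TPM in the controls and at 29.4, 14.9 and 7.75 TPM after radiotherapy. The groups overlapped, and the log2 difference of 1.11 (SE 1.18) had an adjusted p of 0.635 by limma. Rnu11 overlaps Gm28872 on the other strand, and the labels do not give the strandedness of the counting. Its values stood in simple ratios to those of other rows of the same length, 134 bases: 3.002 times Gm26397 in control replicates 1 and 2, 4.001 times Gm23442 in radiotherapy replicate 1 and 0.5 times Gm23442 in radiotherapy replicate 3. In radiotherapy replicate 2 the ratio to Gm26205 was 1.10. These rows were chosen for comparison after their values were seen. Rnu12, the gene for U12, was at 4.22 TPM in control replicate 1 and at 0 in the other 5 libraries.

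U3, a box C/D RNA that directs early cleavages of the ribosomal RNA precursor instead of methylation, was carried by 4 rows with identical values. Snord3b1, Snord3b2, Snord3b3 and Snord3b4 were each at 1.22, 17.4 and 1.26 TPM in the controls and at 0.80, 2.44 and 0.95 TPM after radiotherapy. Control replicate 2 stood far above the other 5 libraries, and the rest of the groups overlapped. Summed, the 4 rows were at 4.88, 69.5 and 5.04 TPM and at 3.20, 9.76 and 3.80 TPM. The log2 difference of each row was -0.98 (SE 0.82, adjusted p 0.550 by limma), and it became 0.0345 without control replicate 2. Snord3a, another U3 gene, was at 1.30 TPM in radiotherapy replicate 3 alone.

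Box C/D snoRNAs were the class with the most names, of which 11.2% were members, and no member of the class was above 0 in all 6 libraries. Snord14d, a guide for ribosomal RNA that lies within the chaperone gene Hspa8, was at 60.2, 0 and 42.5 TPM in the controls and at 0 in all 3 radiotherapy libraries. Snord21, within the ribosomal protein gene Rpl5, was at 23.2, 0 and 28.9 TPM in the controls and likewise at 0 in all 3 radiotherapy libraries. Both were also at 0 in control replicate 2, so the groups overlapped. Neither passed the threshold, each with an adjusted p of 0.332 by limma. Both passed the filter on low values through control replicates 1 and 3 alone. Without control replicate 2 limma called both lower, each with an adjusted p of 0.0131, in a fit that called 0.109% of all features in either direction. Because the library left out was the control in which both were at 0, this call is no separate support for a difference.

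Snord22, which is needed for maturation of the small-subunit ribosomal RNA, was at 19.0, 30.1 and 10.5 TPM in the controls and at 13.9, 26.9 and 0 TPM after radiotherapy. It was the most widely seen box C/D member, in 5 of 6 libraries, with overlapping groups. Snord13, which pairs with small-subunit ribosomal RNA, was at 20.4 TPM in control replicate 3 and at 40.4 TPM in radiotherapy replicate 2, and at 0 in the other 4 libraries. Snord15b was at 4.55, 13.9 and 0 TPM in the controls and at 0, 0 and 5.22 TPM after radiotherapy. The remaining 6 were each seen in 1 library: Snord83b in control replicate 1 at 23.8 TPM, Snord94 and Snord15a in radiotherapy replicate 2 at 6.84 and 5.04 TPM, and Snord35a, Snord12 and Snord17 in radiotherapy replicate 3 at 37.9, 24.4 and 0.90 TPM. The class summed to 131, 44.0 and 102 TPM in controls (92.3 ± 44.2, SD, n = 3) and to 13.9, 79.2 and 68.5 TPM after radiotherapy (53.9 ± 35.0), with overlapping groups.

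Box H/ACA snoRNAs gave steadier sums. The class was at 36.0, 44.4 and 26.2 TPM in controls (35.5 ± 9.08, SD, n = 3) and at 27.2, 40.2 and 33.6 TPM after radiotherapy (33.7 ± 6.51). Snora65, within Rpl12, was at 3.98, 28.6 and 18.4 TPM in the controls and at 23.3, 15.4 and 17.8 TPM after radiotherapy. It carried much of the class sum except in control replicate 1, where Snora61 carried most of it, at 27.8 TPM. Snora65 was above 0 in all 6 libraries, its groups overlapped, and control replicate 1 was the one low value. Snora43 was at 1.96, 1.75 and 2.47 TPM in the controls and at 2.87, 3.44 and 3.08 TPM after radiotherapy. Every radiotherapy library was above every control, and the spread within groups was small. These are low values, and without read counts the small spread cannot be read as precision. The log2 difference of 0.44 (SE 0.24) did not pass the threshold, with an adjusted p of 0.408 by limma.

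The other box H/ACA members were seen in 1 to 3 libraries. Snora61, within the host transcript Snhg12, was at 27.8 TPM in control replicate 1, at 6.42 TPM in radiotherapy replicate 2 and at 6.12 TPM in radiotherapy replicate 3. Snora73b, which takes part in maturation of the small-subunit ribosomal RNA, was at 0, 3.57 and 2.16 TPM in the controls and at 1.05 TPM in radiotherapy replicate 1 alone. Its neighbour Snora73a was at 2.60 TPM in control replicate 3 and at 1.32 TPM in radiotherapy replicate 3. Their shared host Snhg3 was above 0 in all 6 libraries. The 9 members seen in a single library had 0.29 to 7.75 TPM there, the highest being Snora20 in control replicate 2 and Snora16a, at 6.93 TPM, in radiotherapy replicate 2. Among scaRNAs, which guide modification of spliceosomal RNAs in Cajal bodies, Scarna2 was at 0.86, 1.73 and 1.59 TPM in the controls and at 2.22, 1.03 and 1.59 TPM after radiotherapy. Scarna13 was at 1.18 TPM in radiotherapy replicate 3 alone.

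The RNAs of the 2 related ribonucleases were low in all libraries. Rpph1, the RNA of RNase P, which trims the leader of transfer RNA precursors, was at 1.16, 0.33 and 2.0 TPM in the controls and at 2.07, 2.23 and 2.81 TPM after radiotherapy. The radiotherapy libraries were all above the controls, by a narrow margin over control replicate 3. The log2 difference of 0.71 (SE 0.35) did not pass the threshold, with an adjusted p of 0.390 by limma. Rmrp, the RNA of RNase MRP, which cleaves ribosomal RNA precursors, was at 0.60, 4.06 and 0.61 TPM in the controls and at 0, 0.58 and 3.06 TPM after radiotherapy. Its groups overlapped, and it lies antisense to Ccdc107. The names Rmrp, Snora43 and Snord3b4 each stood on a second row that was at 0 in every library.

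The host genes of the intronic members were seen far more evenly than the members. Of 27 snoRNA and scaRNA members placed in GENCODE vM21, 23 lay within a longer gene on the same strand, 11 of them in ribosomal protein genes and 7 in named small RNA host transcripts (Snhg genes and Zfas1). Of 22 hosts in the table, 21 were above 0 in all 6 libraries. None of the 21 tested hosts was called by limma, and 0 had an unadjusted p under 0.05. In 1 of the 21, Ptcd3, every radiotherapy library was below every control, beside 19.3% of all features. The median log2 difference of the hosts was -0.29, near the -0.36 of all features. Hspa8 was at 1028, 1691 and 999 TPM in the controls and at 593, 775 and 1739 TPM after radiotherapy, while its Snord14d was at 0 in 4 of these 6 libraries. Rpl5 was at 11.1, 7.49 and 10.4 TPM in the controls and at 8.27, 8.06 and 15.2 TPM after radiotherapy, with Snord21 at 0 in the same 4. Rpl12 was at 19.5, 17.9 and 16.0 TPM and at 13.5, 10.8 and 38.1 TPM, without the low value that Snora65 had in control replicate 1.

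The proteins that make, trim and bind these RNAs, and a list of named snoRNA host transcripts, showed no called change. Over 12 lists, 140 of 151 genes were tested, of which 20 were host transcripts. By limma 0 were called in either direction, and 12 had an unadjusted p under 0.05, as did 14.4% of all features. In 23 of the 140 every radiotherapy library was below every control and in 0 above, beside 19.3% and 1.73% of all features, and the median log2 difference was -0.39. Of 5 tested box H/ACA proteins, all were below 0, beside 78.5% of all features. Dkc1, the pseudouridine synthase, had a log2 difference of -0.83 (SE 0.27, adjusted p 0.306 by limma) and Nop10 of -0.71 (SE 0.28, adjusted p 0.332). The 4 box C/D proteins had a median of -0.12, with Nop58 at -0.61 (SE 0.58, adjusted p 0.594).

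Among proteins of the spliceosomal particles, 22 of 23 tested were below 0, with a median of -0.45. Over all features 78.5% were below 0, with a median of -0.36 that became -0.01 after median-of-ratios scaling. Rnpc3, a protein of the U11 and U12 particle, was at 8.84, 9.17 and 9.04 TPM in the controls and at 2.24, 2.15 and 6.46 TPM after radiotherapy, with an adjusted p of 0.296. Ddx20, of the SMN complex that loads Sm rings onto snRNAs, had a log2 difference of -0.94 (SE 0.26, adjusted p 0.283). Lsm10, of the U7 ring, had -0.98 (SE 0.41, adjusted p 0.340). The groups of Lsm10 overlapped, and those of Rnpc3 and Ddx20 did not. Mtrex, the helicase of the nuclear exosome, had -0.78 (SE 0.25, adjusted p 0.304) and Rpap3, of the assembly complex for snoRNPs, -1.16 (SE 0.33, adjusted p 0.283). The 10 tested RNase P and MRP proteins had a median of -0.23 and the 7 proteins of the 7SK particle and P-TEFb a median of -0.33. None of these differences passed the threshold.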

How the data were processed

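Per the labels' protocols, total RNA was made into libraries with Illumina's TruSeq kit. The labels do not give how RNA was selected for the libraries. The zeros and the order of levels therefore cannot be read as abundance in the muscle. The authors deposited 1 table of TPM for 55995 features, given to 2 decimals, with the same total in every library. The submitters' processing notes name HISAT2, StringTie, RSEM and the build mm9, with no version or role, and some identifiers postdate mm9. TPM divides by length, so 1 read weighs more in a short RNA than in a long one. No read counts were used, so no count test was made.

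Members were rows whose name begins with Rnu and a digit, Snora, Snord, Scarna, Rmrp, Rpph1, Rn7sk or Rny, with TPM above 0 in at least 1 library. The members, gene lists and alternatives were chosen with earlier results of these data known. Features whose mean reached 1 TPM were tested two-sided on log2(TPM + 1) with limma 3.58.1 in R 4.3.3 (empirical Bayes with a trend, no covariates), with Benjamini-Hochberg adjustment over all 11938 features and a threshold of 0.05. The test was run on simulated data first. Sequences, lengths, places and hosts came from GENCODE vM21 (GRCm38), which held 39 of 43 members, 32 matched by identifier and 7 by symbol. Named members were the 25 with the highest mean, all that were called or separated between the groups, up to 6 at 0 in each group and all of classes of at most 3, and up to 2 genes per list. Alternatives were other pseudocounts (0.1, 0.5), other filters (mean of 5 TPM, or none), 4 other scalings, the replicate number as a block, leaving out each library and summing rows of identical sequence. Figures were drawn with matplotlib 3.10.9.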

Additional observations from a re-analysis of the deposited data

How the results depend on the processing

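The one call among these RNAs, Rnu1a1, depended on the processing. Members called numbered 1 of 28 and became 0 with no filter on low values, 0 after median-of-ratios scaling, 0 after quantile normalisation, 0 with rows of identical sequence summed, and 0 to 3 when single libraries were left out (0 without control replicate 1 or 3, 2 without control replicate 2, 3 without radiotherapy replicate 3). The adjusted p of Rnu1a1 was 0.0759, 0.0525, 0.0730 and 0.451 under the first 4 of these, and 0.0658, 0.0523 and 0.0554 without control replicate 1, 2 or 3. The calls gained were Rny1 and Rny3 without radiotherapy replicate 3, where both had their highest radiotherapy value. Snord14d and Snord21 were gained without control replicate 2, in which both were at 0. Over all features, 7 genes were called, against 0 with no filter, 4 after median-of-ratios scaling, 4 after quantile normalisation, 3 with identical rows summed, and 3 to 3718 with 1 library left out (13 without control replicate 2, 3 without control replicate 3, 3718 without radiotherapy replicate 3). Members not overlapping between groups numbered 4, or 2 at a mean of at least 5 TPM, where 11 members were tested, and 4 to 8 with 1 library left out, the highest without radiotherapy replicate 2. The median log2 difference of tested members was -0.39, or -0.0069 after median-of-ratios scaling, -0.11 after quantile normalisation, -1.10 with a pseudocount of 0.1, 0.29 at a mean of at least 5 TPM, and -0.81 to 0.08 with 1 library left out. The fits at a higher mean hold fewer members and those without a library fewer samples; for the others the cause was not tested.

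The replicate block called 4 genes in all, with the same single member, Rnu1a1. Same-numbered libraries did not deviate together, with correlations of -0.045, -0.112 and -0.201, so the numbers were not used as pairs. Of the 28 tested members, 15 kept their direction under all alternatives run, and 13 changed it with 1 library left out and under no other alternative. All 13 were among the 18 tested members above 0 in both groups. The other tested members were at 0 in a whole group, so leaving out a library could not reverse them. For those, a kept direction is no support for a difference. With 1 library left out, the log2 difference ranged from -1.08 to 0.0747 for Rny1, -0.29 to 1.00 for Snora65, -2.32 to 0.0824 for Snord22, -0.34 to 1.84 for Rnu11, -1.47 to 1.79 for Snord13, -0.52 to 1.91 for Snora61, -1.49 to 0.0345 for each of Snord3b1, Snord3b2, Snord3b3 and Snord3b4, -0.0504 to 0.29 for Scarna2, -0.90 to 0.11 for Rmrp and -0.45 to 0.0935 for Rnu2-10. Depth is unknown, so a listed 0 cannot be read as absence of the RNA.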
